A study of Mus musculus with 12 samples.

Results

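The comparison set lenses homozygous for the p.I65M substitution in *Trpm3* (*Trpm3*-M/M) against lenses of *Trpm3* knockout mice (*Trpm3*-KO), across every expressed gene. It rests on 6 of the 12 libraries of the study, 3 of each of the 2 genotypes, and asks how a lens with a substituted TRPM3 channel differs from a lens in which the gene has been targeted. Libraries were taken by the genotype named in the sample labels, and the 3 wild-type and 3 heterozygous (*Trpm3*-I/M) libraries entered the same fit and are given only as reference levels. All 4 genotypes were of the B6J strain and were sampled at P7 (an age of 7 days), and a library is stated to hold 4 lenses from males and 4 from females. One library went against that description. The female-specific RNA *Xist* was at 0.0722 CPM in *Trpm3*-I/M replicate 3 against 45.8 to 305 CPM in the others, and the Y-linked gene *Ddx3y* was highest there, at 27.2 CPM. It enters the *Trpm3*-I/M levels given below for reference. Without it the mean of the *Trpm3*-I/M libraries kept its order against both other means in 170 of 175 named genes, and the exceptions (*Rpl15-ps2*, *Rpl15-ps3*, *Slc6a15*, *Caprin2* and *Gcg*) have no *Trpm3*-I/M value in the text. *Trpm3*-M/M mice carried the substitution on both alleles after CRISPR/Cas9 editing. *Trpm3*-KO mice carried alleles made by homologous recombination that interrupt the gene with a reporter and selection cassette, were re-derived from frozen embryos, and still make transcripts that join *Trpm3* sequence to the cassette. Both alleles are present in every cell of the mouse, not only in the lens, and neither group carried a Cre transgene or received a treatment. Whether the 3 libraries of a genotype came from separate litters is not given in the sources used here, so p-values measure the spread between these pools.

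TRPM3 is a calcium-permeable cation channel of the transient receptor potential family that opens on exposure to the steroid pregnenolone sulfate and to heat. The lens is an avascular tissue in which a single sheet of epithelial cells supplies fiber cells, which fill with crystallin proteins and remove their organelles as they mature. Its clarity depends on low free calcium in the fiber cells, kept so by calcium pumps, sodium-calcium exchange and the sodium-potassium ATPase of the epithelium.

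RNA was poly-A selected before sequencing, and what was deposited is an estimated read count per gene and library. Counts on genes came to between 56945022 and 60992835 per *Trpm3*-KO library and between 65454127 and 73875040 per *Trpm3*-M/M library. Levels are given as CPM, counts relative to the library total after scaling by TMM factors, which centre the bulk of genes at no change. These factors were 0.881 to 0.935 for *Trpm3*-KO and 1.22 to 1.27 for *Trpm3*-M/M. Scaling by library size alone shifted the median log2 fold change over the 8984 tested genes from −0.01 to 0.46, so the changes below are all relative to that median, and it is stated where the scaling alters a direction. Crystallin genes took 49.4% to 63.9% of the counted reads in all 12 libraries, and *Mip*, the main membrane channel of fiber cells, was at 8072 to 8338 CPM in *Trpm3*-KO and 4529 to 4869 CPM in *Trpm3*-M/M. A gene was tested if it reached 5 CPM, before TMM scaling, in at least 3 of the 12 libraries (a *Trpm3*-M/M library can therefore print lower and a *Trpm3*-KO library higher), and called if it changed at least 2-fold with an adjusted p of at most 0.05 (edgeR's quasi-likelihood test, Benjamini–Hochberg adjustment).

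The targeted gene differed between the groups by its total read count. *Trpm3* (ENSMUSG00000052387, chr19:22139046-22995410 of GRCm38, forward strand) stood at 89.9, 99.7 and 96.3 CPM in the *Trpm3*-KO libraries and at 473, 469 and 484 CPM in the *Trpm3*-M/M libraries. Each *Trpm3*-M/M library therefore lay above each *Trpm3*-KO library, with a log2 fold change of 2.32 (SE 0.06, edgeR adjusted p = 6.34e-12). Wild-type libraries ranged from 251 to 285 CPM and *Trpm3*-I/M libraries from 370.2 to 413 CPM, so the 2 genotypes compared lay on opposite sides of wild-type. Each count takes in the gene from end to end, so cassette-joined and intact transcripts were not told apart. The gene of miR-204, a microRNA abundant in lens and other eye tissues, lies within the bounds of *Trpm3* on the same strand. It was listed at 0 counts in all 12 poly-A libraries, so no value is given for it. Its mature 5p strand, at chr19:22750610-22750631 (GRCm38.p6), is shown because the host gene is the targeted one, with the seed (bases 2 to 8) in capitals and taken from RefSeq.
mmu-miR-204-5p: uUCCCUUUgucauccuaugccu

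Of 8984 tested genes, 615 were called higher in *Trpm3*-M/M lenses relative to *Trpm3*-KO lenses (6.85%) and 264 were called lower (2.94%). The 12 largest rises included the transporter *Slc14a1*, *Serpina3h*, *Bpifb6*, *Gpnmb*, *Arr3* and the matrix genes *Spp1*, *Tnc*, *Postn* and *Col1a1*. The strongest falls were in *Aox4*, *Abca13*, several ribosomal protein pseudogenes and *Sox2ot*. Without the fold threshold, 2905 genes were higher (32.3%) and 2913 lower (32.4%), so the counts in the 2 directions were close once smaller differences were included. Every *Trpm3*-M/M library lay above every *Trpm3*-KO library in 35.1% of tested genes and below in 35.8%. In the same fit, 51 genes were called between *Trpm3*-KO and wild-type (0.568%). The comparison of *Trpm3*-M/M with wild-type called 804 (8.95%). These comparisons share libraries with the one described here, and values for single genes are therefore given side by side. The count of genes called higher fell to 385, 357 and 383 when *Trpm3*-M/M replicate 1, 2 or 3 was left out, because the filter of 3 libraries then removed genes that reached 5 CPM only in *Trpm3*-M/M. With the tested genes held as they were, it was between 600 and 628 over the 6 libraries left out in turn. Without *Trpm3*-I/M replicate 3 the counts were 613 and 264.

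The filter itself favoured rises. Of the 8984 genes, 771 would not have been tested without the *Trpm3*-M/M libraries, since they reached 5 CPM in fewer than 3 of the other 9. These 771 held 294 of the 615 genes called higher and none of those called lower. Of the other 8213 genes, 321 were called higher (3.91%) and 264 lower (3.21%). For gene lists in which such genes were common, their number is given, and the counts over all tested members of those lists then support no direction.

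**Figure D1:**
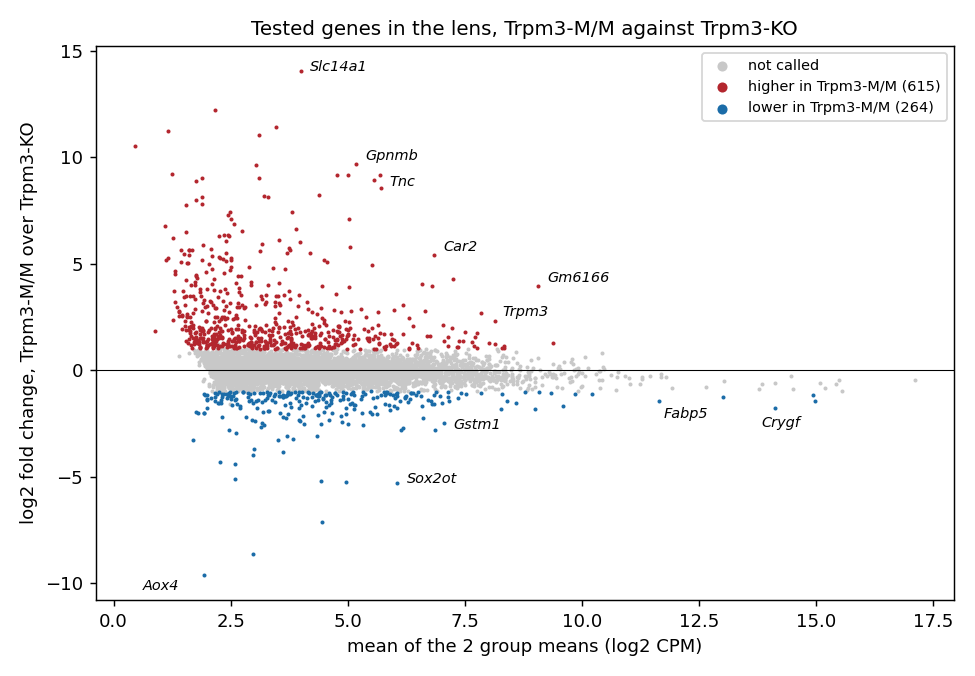
Each point is 1 of 8984 tested genes, with the log2 of the mean CPM of both groups on the x axis and the log2 fold change of *Trpm3*-M/M over *Trpm3*-KO on the y axis. The 615 genes called higher (red) reach further from 0 than the 264 called lower (blue), and the crystallins at the right lie below 0, apart from *Cryab* when library size is the only scaling.

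Among the largest rises, several genes had almost no reads in the knockout. *Slc14a1*, a urea transporter, had 0 counts in each *Trpm3*-KO library and 32.4, 34.1 and 29.5 CPM in the *Trpm3*-M/M libraries, at least 576-fold higher against a floor of 3 counts per library. *Spp1* (osteopontin, a secreted phosphoprotein of bone and wounds) had 1 count over the 3 *Trpm3*-KO libraries and 13.5, 30.4 and 22.5 CPM in *Trpm3*-M/M, a ratio of 3650-fold (95% counting interval 656 to 144000). Both genes were also close to 0 in wild-type lenses, where *Slc14a1* averaged 0.0267 CPM and *Spp1* 0.0206 CPM. *Gpnmb*, a glycoprotein of lysosomes and melanosomes, stood at 0.0748, 0.109 and 0.0751 CPM in *Trpm3*-KO and 42.3, 78 and 97.3 CPM in *Trpm3*-M/M libraries (log2 fold change 9.68, SE 0.52). *Serpina3n*, a secreted protease inhibitor of acute inflammation, stood at 0.0561, 0.253 and 0.263 CPM against 70.9, 114 and 97.1 CPM (8.93, SE 0.41). Neither gene overlapped between the groups, and replicate 1 was the lowest of the *Trpm3*-M/M libraries in both. *Masp1*, a protease of the lectin pathway of complement, was even among libraries, at 17.5, 17.3 and 17 CPM in *Trpm3*-M/M against 0.0561, 0.0181 and 0.0188 CPM in *Trpm3*-KO. Unlike *Spp1* and *Gpnmb*, *Masp1* was already at 12.5 to 14.6 CPM in *Trpm3*-I/M libraries. *Bpifb6*, of a lipid-binding protein family, had 1 count over the *Trpm3*-KO libraries and 14.4, 24.9 and 12.5 CPM in *Trpm3*-M/M, a ratio of 2830-fold (95% counting interval 508 to 112000). *Arr3* (cone arrestin) had 3 counts over the *Trpm3*-KO libraries and 10.7, 18.8 and 19.9 CPM in *Trpm3*-M/M, a ratio of 901-fold (95% counting interval 308 to 4370).

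The largest falls were of 2 kinds, those in which the knockout stood near wild-type and those in which it did not. *Abca13*, a large ABC transporter, was at 12.7, 18.5 and 16.3 CPM in *Trpm3*-KO, 11.8 to 23 CPM in wild-type and 0.0375, 0.0759 and 0 CPM in *Trpm3*-M/M libraries (log2 fold change −8.62, SE 0.46). The neutral amino acid transporter gene *Slc6a15* was at 15, 14.9 and 14.8 CPM in *Trpm3*-KO against 0.988, 1.37 and 1.06 CPM in *Trpm3*-M/M (−3.70, SE 0.12). The glutathione transferase gene *Gstm2* was at 23.7, 21.6 and 23.8 CPM against 1.63, 1.53 and 1.72 CPM (−3.83, SE 0.11). In all 3 the groups were far apart, and wild-type means (17.5, 19.2 and 21.7 CPM) lay close to the knockout. *Gm43718*, an unclassified transcript, and *Rsad2*, an interferon-induced antiviral enzyme, had the same order, with log2 fold changes of −5.12 and −4.01. *Megf11*, a cell-surface receptor of neuronal spacing, and *Ccbe1*, a matrix protein of lymphatic growth, had their highest level in *Trpm3*-KO and their lowest in *Trpm3*-M/M, with wild-type between. *Ccbe1* was at 9.03, 8.66 and 10 CPM in *Trpm3*-KO, 2.97 to 4.87 CPM in wild-type and 0.4, 0.488 and 0.474 CPM in *Trpm3*-M/M libraries (−4.34, SE 0.22).

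**Figure D2:**
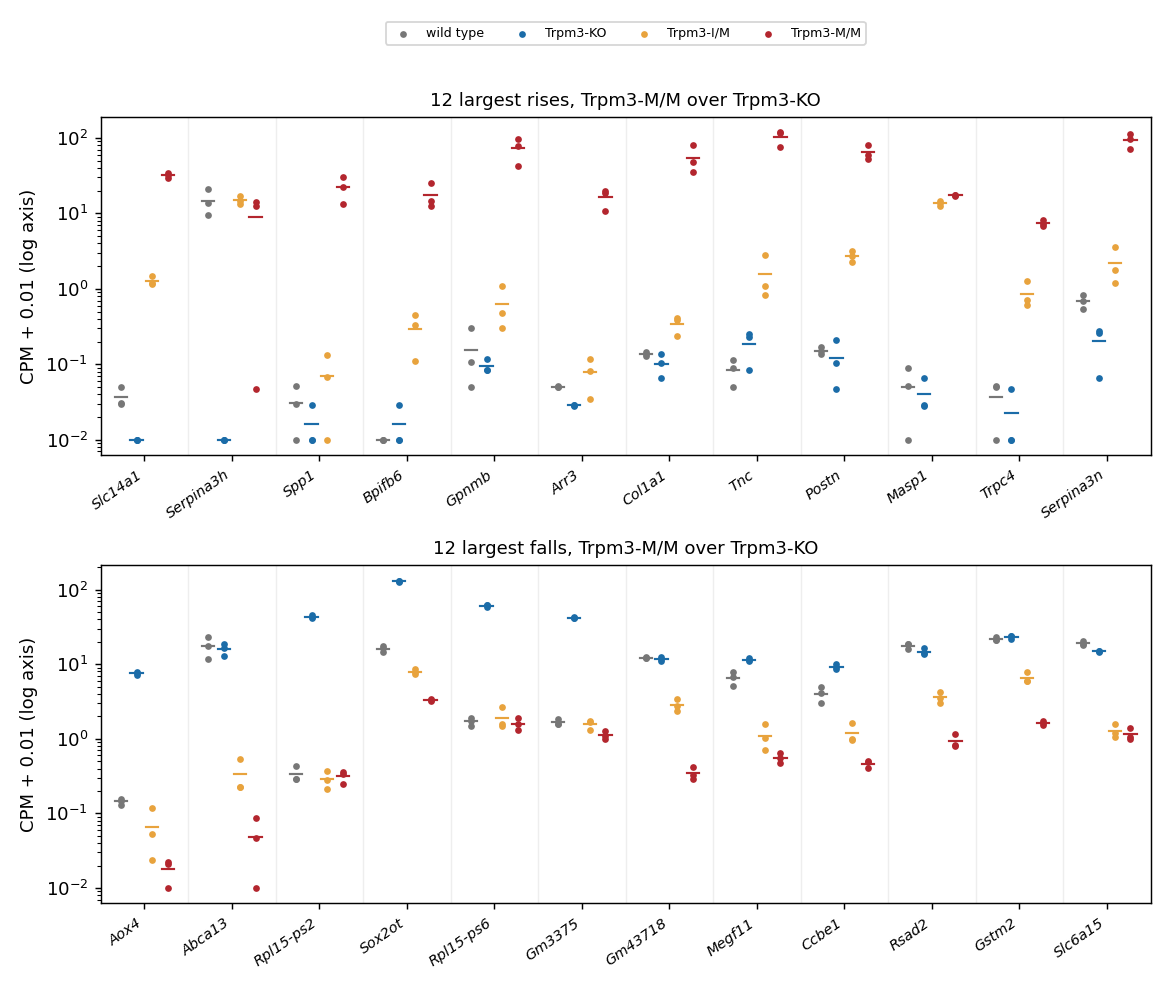
CPM plus 0.01 on a log axis for the 12 largest rises (top) and 12 largest falls (bottom), with 1 point per library, a line at each group mean and the 4 genotypes in colour. In the upper panel the *Trpm3*-M/M points stand far above the *Trpm3*-KO points, apart from *Trpm3*-M/M replicate 1 for *Serpina3h* (0.04 CPM). In the lower panel the knockout stands alone for *Aox4*, *Rpl15-ps2*, *Rpl15-ps6* and *Gm3375* and beside wild-type for *Abca13*, *Gstm2* and *Slc6a15*.

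In a further set of genes the knockout stood apart, and *Trpm3*-M/M lay nearer to wild-type. These were taken as the 12 genes with the largest difference between *Trpm3*-KO and wild-type among those called in that comparison and in this one, so both differences are descriptions. *Aox4*, an aldehyde oxidase, was at 7.72, 7.89 and 7.1 CPM in *Trpm3*-KO libraries and had 2 counts in all over the *Trpm3*-M/M libraries, a ratio of 987-fold (95% counting interval 273 to 8160), while its wild-type mean was 0.135 CPM. *Misp*, which encodes a mitotic spindle positioning protein, was at 0.71, 0.615 and 0.338 CPM in *Trpm3*-KO, 30.2, 21.9 and 24.5 CPM in *Trpm3*-M/M and 33 to 66 CPM in wild-type libraries. *Misp* (chr10:79820989-79830490) starts just downstream of *Palm* (chr10:79793572-79820896) on the same strand. *C1qtnf1*, a secreted relative of adiponectin, was at 1.78, 1.81 and 1.77 CPM in *Trpm3*-KO against 20.1, 21.6 and 18.9 CPM in *Trpm3*-M/M (3.50, SE 0.17), with 11 to 18.3 CPM in wild-type.

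Of these 12 genes, 6 are processed pseudogenes (*Rpl15-ps2*, *Rpl15-ps3*, *Rpl15-ps6*, *Rpsa-ps10*, *Gm3375* and *Gm6166*), whose reads the counting can share with the parent gene and other copies. *Gm6166* was at 66.6, 69.3 and 58.1 CPM in *Trpm3*-KO and 1001, 995 and 1025 CPM in *Trpm3*-M/M libraries, and *Rpl15-ps2* at 46.2, 41.5 and 42.6 CPM against 0.325, 0.347 and 0.237 CPM. The copies moved in both directions, since *Rpsa-ps10*, *Gm6166* and *Rpl15-ps3* were higher in *Trpm3*-M/M and the other 3 lower. *Rpsa* itself fell by 1.00 on the log2 scale (758, 715 and 712 CPM in *Trpm3*-KO, 349, 333 and 407 CPM in *Trpm3*-M/M), a call lost with library size only and without *Trpm3*-KO replicate 1 or *Trpm3*-M/M replicate 1 or 2, while *Rpsa-ps10* rose by 4.28. *Serpina3h*, a transcribed pseudogene on chromosome 12, and its neighbour *Serpina3i* had 0 counts in each *Trpm3*-KO library. In *Trpm3*-M/M, *Serpina3h* stood at 0.0375, 12.6 and 14.3 CPM and *Serpina3i* at 0.0375, 4.46 and 3.71 CPM. Replicate 1 of *Trpm3*-M/M was thus near the knockout for both genes, and the other 2 libraries lay within the wild-type range (9.62 to 20.9 CPM for *Serpina3h* and 2.98 to 5.93 CPM for *Serpina3i*). Against a floor of 3 counts per library the *Trpm3*-M/M means were at least 161-fold and at least 49.3-fold higher. The long non-coding RNA *Gm36684* was at 0.0187, 0.0181 and 0.0376 CPM in *Trpm3*-KO, 6.6, 5.91 and 4.89 CPM in *Trpm3*-M/M and 7.96 to 8.95 CPM in wild-type libraries. *Lgsn* and *Palm* are given here because wild-type libraries differed widely in them. *Palm* was named after its values were seen, and *Lgsn* as a called member of the fiber membrane and cytoskeleton list. *Lgsn* (lengsin, a lens fiber protein) was at 107, 132 and 139 CPM in *Trpm3*-KO, 36.4, 9.12 and 11.5 CPM in *Trpm3*-M/M and 0.654 to 81.7 CPM in wild-type libraries, and its call (edgeR adjusted p = 0.027) was lost when *Trpm3*-KO replicate 3 or *Trpm3*-M/M replicate 2 or 3 was left out. *Palm*, which encodes a membrane-anchored protein, was at 121 to 126 CPM in *Trpm3*-KO, 14.8, 25.3 and 13.3 CPM in *Trpm3*-M/M and 0.178 to 61.9 CPM in wild-type libraries.

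**Figure D3:**
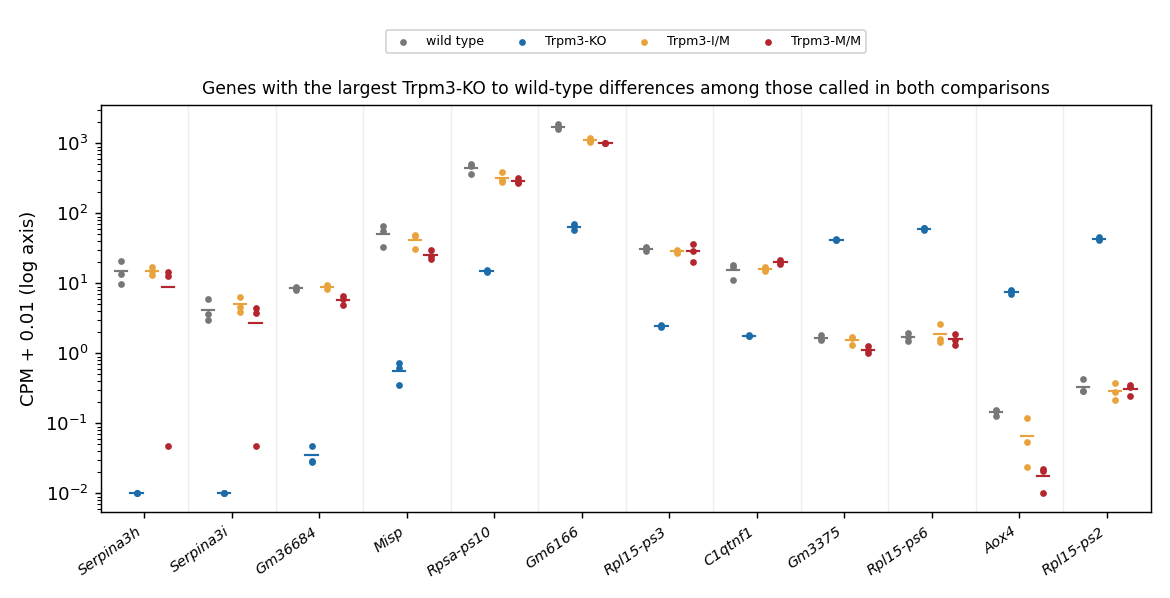
CPM plus 0.01 on a log axis for the 12 genes with the largest difference between *Trpm3*-KO and wild-type, with 1 point per library and a line at each group mean. The blue *Trpm3*-KO points lie apart from the other 3 genotypes in each gene, apart from *Trpm3*-M/M replicate 1 for *Serpina3h* and *Serpina3i*, and *Aox4* is lower still in *Trpm3*-M/M than in wild-type.

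*Sox2ot* is a long non-coding RNA gene (chr3:34104270-34682619) that encloses *Sox2*, a transcription factor gene of the early lens (chr3:34650405-34652461), on the same strand. *Sox2ot* was at 132, 127 and 132 CPM in *Trpm3*-KO and 3.33, 3.4 and 3.18 CPM in *Trpm3*-M/M libraries, a fall by 5.30 on the log2 scale (SE 0.08, edgeR adjusted p = 7.37e-14). Wild-type libraries lay between, at 14.4 to 17.4 CPM. *Sox2* was at 20.8, 23.1 and 20.3 CPM in *Trpm3*-KO, close to the 18.6 to 23.3 CPM of wild-type, and at 4.55, 4.65 and 4.12 CPM in *Trpm3*-M/M (−2.27, SE 0.10). Counting can share reads between overlapping genes of 1 strand.

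Crystallin reads were fewer in *Trpm3*-M/M. The 16 listed crystallin genes, the structural proteins of the fiber cells, took 62.2%, 60.5% and 59.9% of all counted reads in the *Trpm3*-KO libraries and 51.3%, 50.9% and 49.4% in the *Trpm3*-M/M libraries. The mean was 60.8% ± 1.17 (SD, n = 3) in *Trpm3*-KO and 50.5% ± 1.01 (SD, n = 3) in *Trpm3*-M/M, a difference of −10.3 percentage points with no overlap (exact permutation test, two-sided, p = 0.1, which is the lowest value possible with 3 libraries against 3). Within the fit, 3 crystallins were called lower and none higher, against 2.94% and 6.85% of all tested genes, with a median log2 fold change of −0.76 over the 16. *Crygf* was at 30072, 27154 and 26121 CPM in *Trpm3*-KO and 9609, 7602 and 7149 CPM in *Trpm3*-M/M (−1.77, SE 0.11). *Crygb* fell by 1.45 and *Crygd* by 1.17 on the log2 scale, calls lost with library size only. All 16 were lower at an adjusted p of at most 0.05 without the fold threshold (against 32.4% of all tested genes), down to *Cryab* (−0.28, SE 0.08), which encodes a small heat shock chaperone, while with library size as the only scaling 15 lay below 0, the median was −0.30 and 1 was called. The called members are gamma-crystallins, closely related genes between which counting may split reads. In bulk samples, fewer cells of a type and less RNA per cell cannot be told apart.

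**Figure D4:**
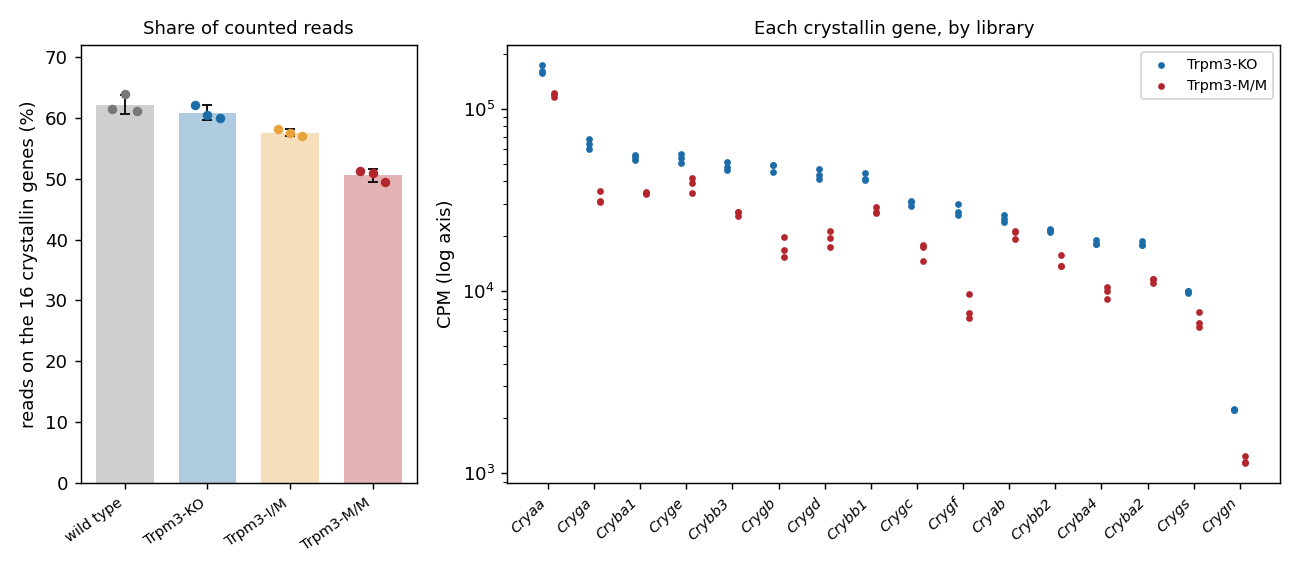
Left, the percentage of counted reads on the 16 crystallin genes, as bars at the mean with the SD and 1 point per library, is lowest in *Trpm3*-M/M (49.4% to 51.3%). Right, the CPM of each crystallin gene in each *Trpm3*-KO (blue) and *Trpm3*-M/M (red) library on a log axis shows *Trpm3*-M/M below *Trpm3*-KO in every gene, most so for *Crygf*; with library size only, 1 of the 16 turns upward.

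Of 24 tested genes of the fiber membrane and cytoskeleton, 3 were called lower and 1 higher, against 2.94% and 6.85% of all tested genes. *Bfsp1* (filensin, of the beaded filament) was at 12425, 11243 and 11402 CPM in *Trpm3*-KO and 5837, 4348 and 4263 CPM in *Trpm3*-M/M (−1.28, SE 0.11), and *Caprin2*, an RNA-binding protein of fiber differentiation, fell by 1.12 on the log2 scale. Both calls were lost with library size only, and that of *Caprin2* also without *Trpm3*-M/M replicate 2. The third was *Lgsn*. *Dsp* (desmoplakin, which anchors intermediate filaments at desmosomes) rose, from 0.486, 0.561 and 0.507 CPM to 4.73, 8.11 and 7.2 CPM (3.69, SE 0.25), and was tested only through the *Trpm3*-M/M libraries. These calls stand beside a list median of −0.18 that turned to 0.28 with library size as the only scaling. Of 18 tested genes of fiber transcription and organelle removal, 2 were called lower, *Sox2* and *Plaat3*, a phospholipase that breaks down organelle membranes (889.9, 886 and 838 CPM in *Trpm3*-KO, 459.8, 387 and 409 CPM in *Trpm3*-M/M). The call of *Plaat3* was lost with library size only and without *Trpm3*-M/M replicate 2. The median of that list was −0.49, and −0.03 with library size only.

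Among 19 tested genes of the lens epithelium, 3 were called lower and 1 higher, against 2.94% and 6.85% of all tested genes. *Foxe3*, a transcription factor needed for epithelial survival, was at 85.7, 73.8 and 79.5 CPM in *Trpm3*-KO and 18.3, 21.2 and 17.9 CPM in *Trpm3*-M/M (−2.05, SE 0.12, edgeR adjusted p = 9.71e-09). *Slc38a3*, a glutamine transporter, was at 50.7, 50.5 and 51 CPM against 17.8, 17.3 and 16.4 CPM (−1.56, SE 0.06). The homeobox gene *Meis2* fell by 1.18, a call lost with library size only. For each of these the groups did not overlap and *Trpm3*-I/M means (46.7, 29.9 and 25.1 CPM) lay between those of the 2 genotypes. The water channel gene *Aqp1* was at 10.4, 8.28 and 10.8 CPM in *Trpm3*-KO and 26.8, 29.1 and 28.1 CPM in *Trpm3*-M/M (1.51, SE 0.14). The list's median of −0.25 turned to 0.21 with library size only, so no direction is given for it as a whole.

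Genes of calcium extrusion were among those that rose. Of 8 tested calcium pumps and exchangers, 3 were called higher and none lower, against 6.85% and 2.94% of all tested genes, with a median log2 fold change of 0.50. *Atp2b4*, which encodes a plasma membrane calcium ATPase, was at 0.636, 0.525 and 0.301 CPM in *Trpm3*-KO and 24.2, 27.8 and 26.8 CPM in *Trpm3*-M/M (5.75, SE 0.13, edgeR adjusted p = 2.79e-12). *Atp2b1*, of the same family, was at 3.63, 4.49 and 4.17 CPM against 18.1, 18.4 and 18 CPM (2.15, SE 0.07). Both were already higher in *Trpm3*-I/M, at means of 13.6 and 10.9 CPM, while wild-type means (0.609 and 4.38 CPM) were near the knockout. *Slc8a1*, the sodium-calcium exchanger, was at 13.2, 14.3 and 13.1 CPM in *Trpm3*-KO and 47.3, 56.8 and 53.9 CPM in *Trpm3*-M/M (1.96, SE 0.09). The most abundant of the 8, the reticulum pump gene *Atp2a2* and the potassium-dependent exchanger gene *Slc24a4*, had log2 fold changes of 0.43 and −0.60 and were not called.

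Of 8 tested TRP channel genes, *Trpm3* and *Trpc4* were called higher and none lower (6.85% and 2.94% of all tested genes). *Trpc4* was tested only through *Trpm3*-M/M, and of the other 7 only the targeted gene was called. *Trpc4*, a calcium-permeable channel gated through phospholipase C, had 2 counts over the *Trpm3*-KO libraries and 7.18, 8.05 and 6.82 CPM in *Trpm3*-M/M libraries, a ratio of 597-fold (95% counting interval 165 to 4930). Its *Trpm3*-I/M mean was 0.856 CPM. *Trpv4*, an osmosensitive channel, was at 3.21, 2.64 and 3.27 CPM against 5.2, 4.84 and 5.23 CPM, and *Trpm1*, a channel of retinal bipolar cells and melanocytes, at 7.78, 7.92 and 7.72 CPM against 11.5, 13.8 and 12 CPM. These had log2 fold changes of 0.74 and 0.67, below the fold threshold. Both passed the threshold with library size only. In *Trpm3*-I/M libraries *Trpv4* was at 6.05 to 7.86 CPM, above both groups. Of 19 tested calcium release and entry channels, 1 was called, the mechanically gated channel gene *Piezo2* (1.12, 0.995 and 1.07 CPM in *Trpm3*-KO, 6.69, 9.93 and 7.41 CPM in *Trpm3*-M/M). *Piezo2* too was tested only through *Trpm3*-M/M, and none of the 17 genes tested without those libraries was called.

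Of 30 tested calcium sensors and buffers, 4 were called higher and 2 lower (6.85% and 2.94% over all tested genes). *Cabp5*, a calmodulin-like protein of retinal neurons, was at 7.91, 7.78 and 7.25 CPM in *Trpm3*-KO and 56.8, 40.9 and 53.5 CPM in *Trpm3*-M/M (2.72, SE 0.18). *Rcan1*, a regulator of calcineurin whose own transcription follows calcineurin activity, was at 24.6, 20.6 and 24.9 CPM against 76.3, 80.1 and 81.4 CPM (1.76, SE 0.09). The calcineurin-dependent transcription factor gene *Nfatc1* was at 1.01, 1.12 and 0.977 CPM against 7.56, 7.54 and 8.58 CPM (2.93, SE 0.13). All 3 had *Trpm3*-I/M means between those of the 2 genotypes. The kinase gene *Camk1d* fell by 1.76 and the neuronal sensor gene *Vsnl1* by 1.44 on the log2 scale, the latter a call lost with library size only. Of 12 tested S100 proteins and annexins, which bind membranes or partner proteins when calcium rises, 6 were called higher and none lower, with a median of 1.04. *Anxa5* was at 10.9, 10.4 and 11.2 CPM in *Trpm3*-KO and 38.8, 48.9 and 48.9 CPM in *Trpm3*-M/M (2.07, SE 0.08), with wild-type between at 22.1 to 24.4 CPM. *S100a6* was at 115, 118 and 109.7 CPM against 223, 326 and 313 CPM (1.33, SE 0.14), and *Anxa2* at 53.4, 51.9 and 55.1 CPM against 145, 177 and 169 CPM (1.61, SE 0.08). Of 10 calpain genes tested, with a median of −0.08 that turned to 0.38 with library size only, 1 was called, *Capn6*, whose product lacks the catalytic cysteine of this protease family. *Capn6* was at 0.0561, 0.163 and 0.188 CPM in *Trpm3*-KO, 47.2, 42.1 and 36.1 CPM in *Trpm3*-M/M and 13.3 to 16.1 CPM in *Trpm3*-I/M libraries.

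Some genes of sodium and potassium balance rose too. *Atp1b1*, a beta subunit of the sodium-potassium ATPase, was at 12.6, 12.8 and 13.3 CPM in *Trpm3*-KO and 94.3, 89.5 and 77.7 CPM in *Trpm3*-M/M (2.75, SE 0.10, edgeR adjusted p = 1.06e-10). Of 16 tested ATPase and ion transporter genes, 2 were called higher and none lower, and of 10 potassium channel genes 3 were called higher and none lower, where all tested genes gave 6.85% and 2.94%. *Kcnk3*, a background potassium channel, was at 1.98, 1.57 and 2.07 CPM in *Trpm3*-KO, 27.4, 26.3 and 20.7 CPM in *Trpm3*-M/M and 28.2 to 31.6 CPM in *Trpm3*-I/M libraries. *Kcna5*, a voltage-gated channel, was at 1.51, 1.63 and 1.6 CPM in *Trpm3*-KO, 10.9, 12.5 and 13.6 CPM in *Trpm3*-M/M and 12.7 to 15.2 CPM in *Trpm3*-I/M libraries. For *Kcnk3* the heterozygous libraries lay above the homozygous ones, and for *Kcna5* they overlapped. Of 12 genes for cell volume and water, *Aqp1* and the taurine transporter gene *Slc6a6* (49.8, 53.9 and 50.8 CPM against 140.3, 156 and 168 CPM) were called higher.

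Of 14 tested immediate early genes, which follow calcium and growth factor signals, 7 were called higher in *Trpm3*-M/M and none lower. These 7 were tested only through the *Trpm3*-M/M libraries, and none of the other 7 was called, so the count gives no direction for the list. *Arc*, a neuronal activity gene, was at 0.0187, 0.0362 and 0.15 CPM in *Trpm3*-KO, 10.4, 12.5 and 9.6 CPM in *Trpm3*-M/M and 3.11 to 4.38 CPM in *Trpm3*-I/M libraries (7.28, SE 0.29). *Fosl2*, an AP-1 subunit, was at 0.86, 0.85 and 1.15 CPM against 8.24, 11 and 8.34 CPM (3.27, SE 0.16). *Egr1* was at 1.83, 3.85 and 1.54 CPM against 13.2, 25.7 and 19.8 CPM (3.02, SE 0.32), and *Junb* at 1.1, 2.19 and 1.47 CPM against 7.26, 14.3 and 14.7 CPM. For *Egr1* and *Junb* the *Trpm3*-I/M means of 1.45 and 1.21 CPM were not above the knockout means of 2.41 and 1.59 CPM. Of 23 genes of ERK pathway feedback, 5 were called higher and none lower, against 6.85% and 2.94% of all tested genes. Of the 5, *Etv4* and *Dusp6* were tested only through *Trpm3*-M/M. Among the other 21 genes 3 were called higher and none lower, against 3.91% and 3.21% of all genes tested without those libraries. *Etv5*, a transcription factor induced by fibroblast growth factor, was at 31, 31.8 and 34.1 CPM in *Trpm3*-KO and 134, 139 and 134 CPM in *Trpm3*-M/M (2.07, SE 0.06), and *Etv4*, its relative, at 0.28, 0.326 and 0.282 CPM against 6.69, 6.01 and 6.66 CPM. The phosphatase genes *Dusp6* and *Dusp4* rose by 1.93 and 1.76, and the inhibitor gene *Spred2* by 1.53. The median of the list was 0.27.

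The unfolded protein response raises chaperones of the endoplasmic reticulum when misfolded protein builds up there. Of 22 tested genes, 4 were called higher and 1 lower (6.85% and 2.94% of all tested genes), and 17 were higher without the fold threshold (against 32.3% of all tested genes), with a median of 0.66. *Hspa5* (BiP, the main chaperone) was at 108, 105 and 98.1 CPM in *Trpm3*-KO and 211, 221 and 238 CPM in *Trpm3*-M/M (1.11, SE 0.06, edgeR adjusted p = 4.47e-09). *Ddit3* (CHOP, a death-associated transcription factor) was at 4.34, 3.71 and 3.66 CPM against 9.83, 15.4 and 16.7 CPM (1.84, SE 0.17), and *Dnajb9*, a co-chaperone, rose by 1.26. *Ppp1r15a* (GADD34), a regulator of translation that stress usually raises, went the other way, at 164, 164 and 157 CPM in *Trpm3*-KO and 58.1, 58.9 and 60 CPM in *Trpm3*-M/M (−1.45, SE 0.21), and *Atf4* had a log2 fold change of −0.44 that did not reach the fold threshold. With library size as the only scaling, 13 of the 22 were called higher and none lower. That scaling called 1208 of all 8984 tested genes higher and 107 lower. The call of *Ppp1r15a* was lost under that scaling.

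Promoters of this list were searched for the endoplasmic reticulum stress element, CCAAT and CCACG with 9 bases of any kind between, on both strands from 250 bases before to 50 bases after the RefSeq start. Promoters were matched by symbol for 19 of the 22 genes and for 7022 of all tested genes. The element was present in 6 of the 19 (31.6%) and in 12 of the 7022 (0.171%). Of promoters of genes called higher it was found in 1 of 433 (0.231%), so the element was not frequent among the genes that rose as such. The 6 were *Hspa5*, *Hsp90b1*, *Creld2*, *Dnajc3*, *Pdia6* and *Syvn1*, with log2 fold changes of 1.11, 0.69, 0.34, 0.26, 0.21 and 0.11. Only *Hspa5* of these was called. *Ddit3* and *Dnajb9*, which rose more, held no match in this window. The 250 bases before the start are shown for the 3 with the largest log2 fold change, with the element in capitals (GRCm38.p6, RefSeq). In *Hspa5* (chr2:34771840-34772089, forward strand) its first base is at −65 from the start. *Hsp90b1*, which encodes the chaperone GRP94, holds 2, at −212 and −107 (chr10:86705445-86705694, reverse strand), the second on the opposite strand and so read as its reverse complement, as is the one of *Creld2* (chr15:88819396-88819645, forward strand), a disulfide isomerase-like protein. A match of letters is a description only.
Hspa5: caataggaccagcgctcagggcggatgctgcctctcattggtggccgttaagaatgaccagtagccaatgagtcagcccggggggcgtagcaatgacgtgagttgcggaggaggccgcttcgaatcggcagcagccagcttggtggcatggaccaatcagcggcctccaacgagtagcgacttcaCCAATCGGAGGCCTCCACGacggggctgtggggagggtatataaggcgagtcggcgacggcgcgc
Hsp90b1: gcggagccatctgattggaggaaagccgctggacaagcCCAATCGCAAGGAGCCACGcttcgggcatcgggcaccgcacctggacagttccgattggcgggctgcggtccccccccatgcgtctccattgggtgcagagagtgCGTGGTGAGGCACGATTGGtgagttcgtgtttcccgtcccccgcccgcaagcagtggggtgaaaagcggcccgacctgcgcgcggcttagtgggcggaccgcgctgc
Creld2: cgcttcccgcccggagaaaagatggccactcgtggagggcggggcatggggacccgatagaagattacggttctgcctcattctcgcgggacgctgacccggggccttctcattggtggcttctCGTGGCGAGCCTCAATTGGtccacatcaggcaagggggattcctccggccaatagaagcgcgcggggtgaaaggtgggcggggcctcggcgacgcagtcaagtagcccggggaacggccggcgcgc

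Of 19 tested cytosolic heat shock genes, 2 were called higher and none lower, against 6.85% and 2.94% of all tested genes, and the median of −0.15 turned to 0.31 with library size only. *Hspa1b*, the inducible HSP70, was at 0.561, 0.597 and 0.319 CPM in *Trpm3*-KO and 8.51, 8.48 and 7.25 CPM in *Trpm3*-M/M (4.03, SE 0.19), though it shares sequence with a near-identical neighbour. *Hspb8* rose by 1.13. Of 20 genes of apoptosis and p53 targets, 6 were called higher and none lower, but all 6 were tested only through the *Trpm3*-M/M libraries and none of the other 14 was called. *Cdkn1a* (p21, an inhibitor of cell division) was at 0.15, 0.0543 and 0.0939 CPM in *Trpm3*-KO and 9.61, 13.5 and 12.4 CPM in *Trpm3*-M/M (6.88, SE 0.31), *Phlda3* at 1.85, 1.9 and 2.05 CPM against 14.8, 19.1 and 16.7 CPM, and *Plk2* at 0.299, 0.416 and 0.451 CPM against 5.4, 7.14 and 6.25 CPM. None of 15 cell cycle genes was called, although 13 were higher and none lower without the fold threshold (32.3% and 32.4% of all tested genes), with a median of 0.57. The most abundant, the proliferation marker *Mki67*, was at 12, 12.9 and 12.9 CPM in *Trpm3*-KO and 20.7, 18.6 and 22.9 CPM in *Trpm3*-M/M (0.72, SE 0.10). At an unadjusted p under 0.05 edgeR also gave 13, DESeq2 and edgeR's exact test called none past the fold threshold, and with library size only 10 were called. Library size only called 1208 of all 8984 tested genes higher and 107 lower, and put their median log2 fold change at 0.46.

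Extracellular matrix genes were among the largest rises. Of 19 tested matricellular proteins, which modulate adhesion without building the matrix frame, 14 were called higher and 2 lower. Of these 19, 12 were tested only through the *Trpm3*-M/M libraries, among them *Spp1*, *Tnc*, *Postn*, *Tgfbi* and *Vcan*, and 11 of the 12 were called higher. Of the other 7, 3 were called higher and 2 lower (3.91% and 3.21% of all genes tested without those libraries). *Tnc* (tenascin C) was at 0.0748, 0.217 and 0.244 CPM in *Trpm3*-KO and 76.4, 119 and 115 CPM in *Trpm3*-M/M (9.16, SE 0.41). *Postn* (periostin) was at 0.0374, 0.199 and 0.0939 CPM against 52.2, 80.9 and 60.1 CPM (9.16, SE 0.28), and *Tgfbi* at 0.467, 0.525 and 0.413 CPM against 49, 69.4 and 75.3 CPM (7.10, SE 0.29). Each *Trpm3*-M/M library lay far above each *Trpm3*-KO library, and *Trpm3*-I/M means (1.56, 2.71 and 6.27 CPM) were above the knockout by less. *Vcan*, a large proteoglycan, was at 0.0748, 0.525 and 0.301 CPM in *Trpm3*-KO and 10.2, 9.14 and 13.9 CPM in *Trpm3*-M/M, with a *Trpm3*-I/M mean of 0.23 CPM. The 2 that fell were *Thbs1* and *Emilin1*, with log2 fold changes of −1.07 and −2.38.

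Of 28 tested collagens, laminins and nidogens, 14 were called higher and 1 lower. Leaving aside 6 tested only through *Trpm3*-M/M, all of them called higher, 8 of 22 were called higher and 1 lower, against 3.91% and 3.21%. *Col1a1*, a chain of fibrillar type I collagen, was at 0.0561, 0.127 and 0.0939 CPM in *Trpm3*-KO and 35, 80.2 and 47.7 CPM in *Trpm3*-M/M (9.17, SE 0.44), where replicate 1 was the lowest. *Col18a1*, a basement membrane collagen, was at 1.35, 1.5 and 1.18 CPM against 44.4, 39.9 and 53.8 CPM (5.10, SE 0.20). *Lama4*, a laminin chain of vessel walls, was at 0.187, 0.163 and 0.131 CPM in *Trpm3*-KO, 29.4, 26.2 and 28.7 CPM in *Trpm3*-M/M and 8.25 to 10.7 CPM in *Trpm3*-I/M libraries (7.44, SE 0.19). *Col12a1* and *Col15a1* rose by 6.51 and 5.17. The one that fell was *Col6a3* (−1.72).

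Of 17 integrins and cadherins, 5 were called higher and none lower, with 2 of the 5 tested only through *Trpm3*-M/M. Leaving aside 3 genes tested only that way, 3 of 14 were called higher and none lower, against 3.91% and 3.21%. *Cdh13* (T-cadherin, which has no cytoplasmic domain) was at 0.0561, 0.0362 and 0.113 CPM in *Trpm3*-KO and 20, 20.5 and 18.3 CPM in *Trpm3*-M/M (8.13, SE 0.18), and *Cd44*, the hyaluronan receptor, at 33.4, 35.9 and 33.7 CPM against 91.6, 124 and 117 CPM (1.69, SE 0.35). Of 21 genes of epithelial-mesenchymal transition, 13 were called higher and none lower. Leaving aside 4 tested only through *Trpm3*-M/M, 9 of 17 were called higher, against 3.91%. *Loxl2*, a collagen crosslinking oxidase, was at 24.3, 24.9 and 27.6 CPM in *Trpm3*-KO and 172, 181 and 172 CPM in *Trpm3*-M/M (2.77, SE 0.06, edgeR adjusted p = 2.01e-12). *Tagln*, a smooth muscle actin-binding protein, was at 0.262, 0.145 and 0.338 CPM against 6.6, 11.4 and 10.3 CPM (5.25, SE 0.28). The transcription factor gene *Twist2* had 1 count over the *Trpm3*-KO libraries and 4.45, 4.26 and 5.5 CPM in *Trpm3*-M/M, a ratio of 768-fold (95% counting interval 138 to 30400), and *Sox9* was at 0.0935, 0.0904 and 0.169 CPM against 5.08, 7.06 and 5.8 CPM. *Loxl2* was well above the knockout in *Trpm3*-I/M libraries (107 to 111 CPM), while *Tagln* was not (0.202 to 0.352 CPM). Pericytes, fibroblasts and smooth muscle express several genes of these lists too, and their markers are given below.

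Of 21 proteases and inhibitors, 10 were called higher and 1 lower. Of these, 5 (*Mmp2* and *Plat* among them) were tested only through *Trpm3*-M/M, and of the other 16 genes 5 were called higher and 1 lower (3.91% and 3.21%). *Mmp2*, a gelatinase, was at 0.187, 0.109 and 0.0939 CPM in *Trpm3*-KO and 7.83, 13.1 and 11.5 CPM in *Trpm3*-M/M (6.36, SE 0.31). *Adamts17*, a secreted metalloprotease linked to fibrillin, was at 4.41, 4.16 and 3.81 CPM in *Trpm3*-KO, 49.7, 46.9 and 53.3 CPM in *Trpm3*-M/M and 17.6 to 20.4 CPM in *Trpm3*-I/M libraries (3.60, SE 0.08). *Plat*, tissue plasminogen activator, was at 1.01 to 1.08 CPM in *Trpm3*-KO, 1.57 to 2.78 CPM in wild-type and 8.58, 14.1 and 13.9 CPM in *Trpm3*-M/M (3.55, SE 0.22). Of 18 TGF-beta and BMP pathway genes, 1 was called, the BMP antagonist gene *Chrdl1* (6.34, 6.82 and 6.89 CPM against 36.1, 39 and 36.2 CPM). Of 24 Wnt and Notch genes, 4 were called higher, all tested only through *Trpm3*-M/M, and 2 lower. The Notch target *Heyl* and ligand *Jag2* rose by 2.27 and 1.66, the Wnt receptor gene *Fzd1* fell by 1.59, and the receptor gene *Notch3* fell by 1.01, a call lost with library size only and without *Trpm3*-M/M replicate 2.

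Genes of innate immunity were few among those tested. Of 38 listed complement and cytokine genes 7 passed the filter, of which 6 were called higher. *Ccl2*, a monocyte chemokine, was at 0, 0.181 and 0 CPM in *Trpm3*-KO and 8.8, 11.4 and 13.1 CPM in *Trpm3*-M/M (7.45, SE 0.52), and *Cxcl14* at 0.299, 0.163 and 0.394 CPM against 10.2, 13 and 9.86 CPM. *Serping1*, the C1 inhibitor, rose by 1.78. Of the 5 tested interferon-stimulated genes, 3 were called higher and 1 lower. The antigen presentation gene *B2m* was at 1.87, 1.83 and 1.95 CPM in *Trpm3*-KO and 13.5, 19.5 and 18.3 CPM in *Trpm3*-M/M (3.18, SE 0.15), and *H2-D1* at 0.897, 0.832 and 0.695 CPM against 8.15, 12.5 and 8.88 CPM. *Rsad2*, by contrast, fell. *H2-D1* and *H2-K1* are close paralogs whose reads may be shared. *Serping1*, *Ccl2*, *Cxcl14*, *B2m*, *H2-K1* and *H2-D1* passed the filter only through *Trpm3*-M/M, so these counts do not describe the lists as a whole.

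Markers of cells outside the lens capsule moved with the comparison. The summed CPM of 15 markers of vascular endothelium was 15.1 to 15.96 in *Trpm3*-KO and 92.1 to 108 in *Trpm3*-M/M, and 8 of 9 tested markers were called higher. Of these 9, 7 were tested only through *Trpm3*-M/M, all called, so the count gives no direction for the list, and of the other 2, 1 was called higher. *Cdh5* (VE-cadherin) was at 0.355, 0.199 and 0.244 CPM in *Trpm3*-KO and 9.61, 8.13 and 11.9 CPM in *Trpm3*-M/M, and *Cldn5* at 0.15, 0.199 and 0.0564 CPM against 10.1, 11.6 and 11.2 CPM. In *Trpm3*-I/M libraries the sum was 29.4 to 40.9, and in wild-type 15.3 to 17.9. The sum of 13 markers of pericytes and fibroblasts was 100.9 to 108 in *Trpm3*-KO and 156 to 207 in *Trpm3*-M/M, with *Lum* and *Thy1* at 0 in the knockout. This rise of the sum was carried by *Col1a1*, given above, and *Rgs5*, while the largest part of the knockout's sum, *Pdgfra*, a receptor of fibroblasts and their progenitors, was at 59.6, 56.8 and 61.6 CPM in *Trpm3*-KO and 39.3, 37.2 and 40.4 CPM in *Trpm3*-M/M. *Rgs5*, a pericyte gene, was at 0.374, 0.742 and 0.319 CPM against 30.3, 29.1 and 34.1 CPM, while *Pdgfrb*, another, was at 18, 16.6 and 19.1 CPM against 15.7, 18.8 and 17.2 CPM, overlapping between the groups. *Notch3*, also a pericyte marker, was lower, as given above.

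The sum of 14 macrophage markers was 0.559 to 0.669 CPM in *Trpm3*-KO and 11.5 to 22.9 CPM in *Trpm3*-M/M libraries, and none of them passed the filter. *C1qc* had 0 counts in the knockout and was at 1.44, 2.51 and 1.87 CPM in *Trpm3*-M/M, at least 34.9-fold higher, while the pan-leukocyte gene *Ptprc* reached 0.225, 0.228 and 0.26 CPM there. Red cell markers summed to 1.07 to 5.64 CPM against 12.4 to 15.02 CPM, and 11 markers of cornea and conjunctiva to 4.32 to 4.996 CPM against 7.46 to 14.7 CPM. Of the cornea's defining genes, *Krt12* (corneal keratin) was at 0 in the knockout and *Kera* (keratocan) at 0 in both groups. *Aldh3a1*, a further marker of that list, was at 0.28, 0.488 and 0.432 CPM in *Trpm3*-KO and 3.59, 5.15 and 4.22 CPM in *Trpm3*-M/M. *Krt19* and *Krt5* overlapped between the groups, and *Upk1b* was lower in every *Trpm3*-M/M library. Photoreceptor markers summed to 2.40 to 3.26 CPM against 17.9 to 25.5 CPM, of which *Arr3* made up the greater part, and *Gnat1* (rod transducin) was at 0.2, 0.119 and 0.0677 CPM in *Trpm3*-M/M. Markers of other retinal cells summed to 19.4 to 20.4 CPM against 45.2 to 47.0 CPM, including *Glul* (glutamine synthetase) at 6.02, 6.06 and 6.03 CPM against 21.1, 21.7 and 21 CPM. As a sum, markers of pigmented cells went the other way, at 24.9 to 26.8 CPM in *Trpm3*-KO and 14.5 to 15.2 CPM in *Trpm3*-M/M. This fall was carried by *Mitf* (17.9 to 20.8 against 11.4 to 11.6 CPM) and *Oca2* (3.07 to 3.87 against 0.0542 to 0.0625 CPM). *Tyrp1* (1.72 to 2.22 against 1.83 to 2.08 CPM) and *Pmel* overlapped between the groups. *Dct* was higher in every *Trpm3*-M/M library, at 0.564 CPM or less. Markers of ciliary epithelium summed to 13.9 to 14.7 CPM against 9.97 to 13.1 CPM. That sum was carried by *Aqp4*, a water channel gene, at 9.61, 10.2 and 10.9 CPM against 5.49, 6.02 and 5.11 CPM. By contrast, *Zic1* (0.0181 to 0.0374 against 0.734 to 1.09 CPM), *Zic2*, *Wfdc1*, *Optc* and *Bmp4* were each higher in every *Trpm3*-M/M library, at 1.69 CPM or less. The part of other cells in the matrix, immune and vascular results above was not tested. The female-specific *Xist* was at 146, 305 and 166 CPM in *Trpm3*-KO and 92.1, 103 and 156 CPM in *Trpm3*-M/M, overlapping between the groups.

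Energy and redox genes changed in both directions. The glycolysis list also holds genes of the hypoxia response, among them *Bnip3*, *Egln3* and *Ndrg1*. Of its 28 tested genes, 10 were called higher, *Bnip3* and *Egln3* included, and 1 lower, *Ndrg1*. Over all tested genes the shares were 6.85% and 2.94%. The median of the list was 0.70. *Pfkp*, a phosphofructokinase, was at 1.38, 1.57 and 1.62 CPM in *Trpm3*-KO and 14.6, 19.1 and 19.2 CPM in *Trpm3*-M/M (3.53, SE 0.14), *Hk1* (hexokinase) at 14.3, 15.4 and 16.8 CPM against 49.4, 48.5 and 48.7 CPM, and *Aldoa* (aldolase) at 201, 194 and 212 CPM against 382, 488 and 453 CPM. *Bnip3* and *Egln3*, both genes of the hypoxia response, rose by 1.83 and 1.59. *Ndrg1*, also a hypoxia-responsive gene, went the other way, at 1160.4, 1208 and 1186 CPM in *Trpm3*-KO and 429, 369.9 and 319.6 CPM in *Trpm3*-M/M (−1.67, SE 0.10). Of 4 tested carbonic anhydrases, which interconvert carbon dioxide and bicarbonate, *Car2* was at 5.51, 5.21 and 5.33 CPM against 178, 248 and 252 CPM (5.40, SE 0.15, edgeR adjusted p = 7.18e-12) and *Car9* at 0.673, 0.543 and 0.827 CPM against 6.56, 12 and 8.34 CPM. *Car8*, an inactive relative, fell from 6.13, 5.79 and 5.86 CPM to 0.675, 0.672 and 0.451 CPM. *Car2* was 11.6 CPM on average in *Trpm3*-I/M, much nearer the knockout than *Trpm3*-M/M.

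Of 27 glutathione genes and NRF2 targets, 4 were called higher and 4 lower, against 6.85% and 2.94% of all tested genes. The transferases *Gstm1*, *Gstm2* and *Gstm6*, whose call was lost with library size only, were among those that fell, and *Gstm1* was at 223, 227 and 224 CPM in *Trpm3*-KO and 38.1, 40.3 and 42 CPM in *Trpm3*-M/M (−2.49, SE 0.08). These are paralogs of 1 cluster that may share reads. *Gsto1* and *Gpx3* rose by 1.48 and 1.97. Of 30 cholesterol genes, 2 were called higher (*Scd1*, a fatty acid desaturase, and *Abca1*, which exports cholesterol) and 1 lower (*Dhcr7*, the last enzyme of synthesis) with log2 fold changes of 3.50, 1.57 and −1.46 in that order. The median of the list, −0.14, turned to 0.32 with library size only. *Rdh10*, a retinol dehydrogenase, was the 1 called of 16 genes of aldehyde metabolism (1.28), in a list whose median of −0.16 turned to 0.29 with library size only. Of 48 genes of oxidative phosphorylation, 1 was called, *Ndufa1* (−1.01), a call that was lost with library size only and without *Trpm3*-KO replicate 1 or 2 or *Trpm3*-M/M replicate 1 or 2, and the list's median of −0.11 turned to 0.35 with library size only.

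Of 71 cytosolic ribosomal proteins, 2 were called lower, *Rpsa* and *Rpl21*, whose call was lost with library size only and without *Trpm3*-M/M replicate 1 or 2. Without the fold threshold 66 were lower and none higher (against 32.4% and 32.3% of all tested genes), with a median of −0.40, but this direction depended on the scaling, since the median was 0.06 with library size only. Of 13 genes of peptide hormone processing and secretion, 5 were called lower and 1 higher, against 2.94% and 6.85% of all tested genes. The median of that list, −0.24, turned to 0.22 with library size only. The calls of *Pcsk1n* and *Syt7*, both lower, were lost with library size only, and that of *Syt7* also without *Trpm3*-M/M replicate 2 or 3. *Nnat* (neuronatin, an imprinted membrane protein of neuroendocrine cells) was at 25.7, 25.1 and 26.4 CPM in *Trpm3*-KO, 2.26, 3.21 and 2.78 CPM in *Trpm3*-M/M and 1.63 to 2.19 CPM in *Trpm3*-I/M libraries (−3.22, SE 0.10). *Gcg*, the proglucagon gene, was at 30.1, 26.4 and 30.4 CPM in *Trpm3*-KO, 7.74, 9.54 and 9.42 CPM in *Trpm3*-M/M and 39 to 95.9 CPM in wild-type libraries, so that the knockout lay between. *Cck* (cholecystokinin), tested only through *Trpm3*-M/M, rose from 0.206, 0.217 and 0.188 CPM to 7.18, 8.7 and 9.45 CPM. Among the most abundant genes called, *Fabp5*, a fatty acid binding protein, was at 4952, 4751 and 4501 CPM in *Trpm3*-KO and 1742, 1767 and 1626 CPM in *Trpm3*-M/M (−1.47, SE 0.07), and *Uchl1*, a ubiquitin hydrolase, at 400.0, 387 and 393 CPM against 918, 999 and 935 CPM (1.27, SE 0.08).

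Neighbours of *Trpm3* on chromosome 19 were read separately, since the 2 alleles were made by different routes. Within 10 Mb of the gene, and leaving it out, 8 of 50 tested genes were called, against 9.78% of all tested genes in either direction. Within 5 Mb 5 of 27 were called, and within 2 Mb 4 of 16, all higher in *Trpm3*-M/M. Among them were *Cemip2*, a hyaluronidase (21.8, 22.2 and 22.5 CPM in *Trpm3*-KO, 61.7, 66.6 and 60.5 CPM in *Trpm3*-M/M), *Klf9*, a transcription factor (6.13, 5.17 and 6.09 CPM against 15.7, 15.2 and 16.1 CPM), and *Mamdc2* (1.89, 1.74 and 1.69 CPM against 13.7, 14.7 and 15.5 CPM). *Mamdc2* was tested only through *Trpm3*-M/M, where the filter favoured rises. *Carnmt1* and *Sgms1* rose and *Cntf* fell farther out, the last a call lost with library size only. *Gldc* (glycine decarboxylase, 7.96 Mb from *Trpm3*) was at 52.7, 49.3 and 49.6 CPM in *Trpm3*-KO, 12.2, 12 and 11.6 CPM in *Trpm3*-M/M and 23.7 CPM on average in wild-type, so the groups lay on opposite sides of wild-type (−2.08, SE 0.05). *Klf9* did as well, with a wild-type mean of 9.93 CPM. The call of *Carnmt1*, at 1.00, lay at the fold threshold and was lost without *Trpm3*-KO replicate 1 or 3 or *Trpm3*-M/M replicate 2. It was also lost without *Trpm3*-M/M replicate 1 with the tested genes kept, at a minimum of 1 CPM, without a filter, with upper-quartile factors and with TMM factors set without crystallins.

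The lists were written with earlier results of these data known and their medians are descriptions, not tests.

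**Figure D5:**
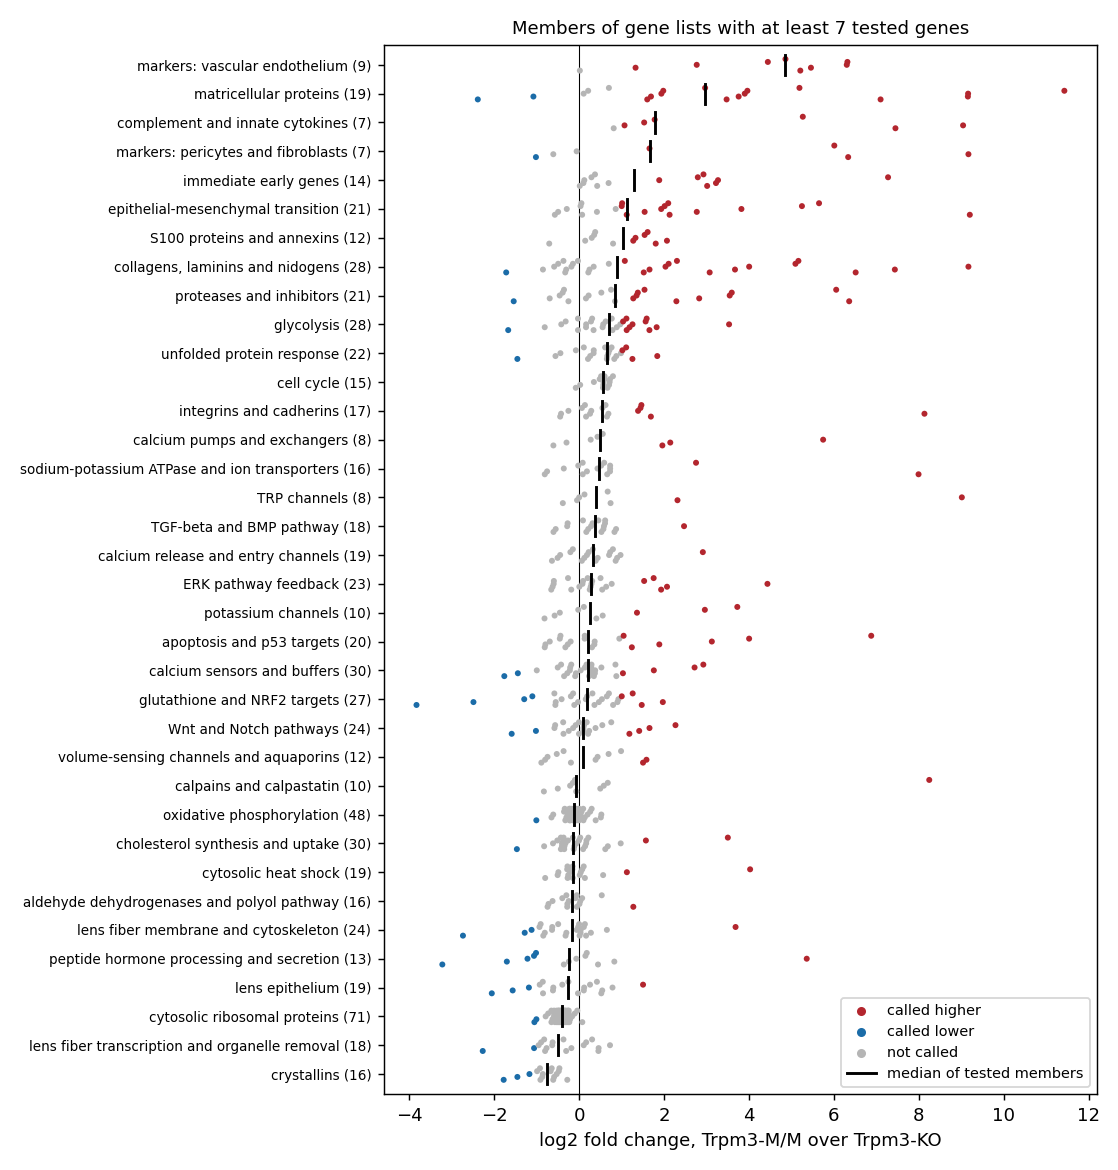
Each point is a tested gene of the list named on the y axis, placed by its log2 fold change of *Trpm3*-M/M over *Trpm3*-KO, with a black bar at the list's median. Red points (called higher) include genes tested only through *Trpm3*-M/M, such as 11 of the 14 in the matricellular list, and the crystallin points all lie below 0, of which 15 of 16 remain there with library size only.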

How the data were processed

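RNA from lenses at P7 was measured in 12 libraries (8 lenses each) of 4 genotypes, of which the 3 *Trpm3*-M/M and 3 *Trpm3*-KO libraries were compared. According to the study's methods and the submitters' processing notes, the authors extracted RNA with an RNeasy kit, made poly-A libraries with a TruSeq kit, sequenced them on an Illumina NovaSeq instrument, converted reads with bcl2fastq, and aligned and quantified them with DRAGEN against mm10 with Ensembl annotation. The file the authors deposited holds an estimated count per gene and library, not normalized, with 88.4% of values whole. These were rounded to whole numbers for the count test, which had been planned for raw counts. A second deposited file, with the authors' own comparisons with wild-type (fold changes and p-values), was not used. Of 55774 rows, 168 identifiers were repeated with equal values and were counted once, leaving 55487 genes. Positions are from GENCODE vM21 (GRCm38). Whether counting used strand is not given in the sources used here, so antisense and overlapping genes may share reads.

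The filter took genes that reached 5 CPM, before TMM scaling, in 3 or more libraries of any genotype. One edgeR 4.0.16 quasi-likelihood fit (R 4.3.3) with TMM factors took all 12 libraries, so the 4 genotypes shared the estimate of the spread, with no covariate. A gene was called at a fold change of at least 2 and a Benjamini–Hochberg adjusted p of at most 0.05, and the SE is the log2 fold change divided by the root of the F statistic. A library at 0 was set to a floor of 3 counts, and ratios with 1 to 3 counts in a group have exact 95% counting intervals that cover counting error only. The crystallin share was compared by an exact permutation test in scipy 1.17.1. Alternatives used DESeq2 1.42.0, edgeR's exact test, glmTreat, other scaling, filters and samples, and the replicate number as a block. Deviations of same-numbered libraries correlated at 0.011, −0.17 and −0.12, so the numbers were not taken to pair libraries. No 2 replicates agreed within sampling noise. On simulated data for this comparison (8984 genes, 50 changed at each fold), the call recovered 18 of 50 genes at 2-fold, 48 at 3-fold, 47 at 4-fold and 49 at 6-fold, and called 0 unchanged genes. Promoters and the miRNA are RefSeq sequences.

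The members and lists were chosen with earlier results of these data known. Named genes are *Trpm3*, the 12 largest rises and falls among called genes at 5 CPM or more in the higher group, up to 5 called members of each list with the largest change (or its most abundant member if none was called), up to 12 genes with the largest difference between *Trpm3*-KO and wild-type called in both comparisons, called genes within 10 Mb of *Trpm3*, genes the study names for these libraries, and the 5 most abundant called genes in each direction. *Mip*, *Palm*, *Cryab*, *Atp2a2*, *Slc24a4*, *Atf4*, *Thbs1*, *Emilin1*, *Pdgfra*, *Col6a3*, members of the stress element set and untested markers were named after their values were seen. Some results are not reported here.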

Additional observations from a re-analysis of the deposited data

How the results depend on the processing

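The counts of 615 genes higher and 264 lower stayed within 1.5 times under DESeq2 (618 and 262), edgeR's exact test (615 and 265), TMM factors without crystallins (613 and 268), upper-quartile factors (610 and 272) and a fit on only the 6 libraries (610 and 256). They moved to 1272 and 478 at a minimum of 1 CPM, 2747 and 1094 without a filter, 813 and 459 with glmTreat at a fold of 1.5, 2905 and 2913 without the fold threshold, and 1208 and 107 with library size only, where 91.9% of calls were higher instead of 70.0%. Leaving out each library in turn gave 357 to 613 higher and 236 to 277 lower. In alternatives chosen after seeing the data, these ranges were 600 to 628 and 251 to 289 with the tested genes kept, and the counts were 613 and 264 without *Trpm3*-I/M replicate 3. The difference in crystallin share was −10.19 points over tested genes, and −10.79 to −9.666 without 1 library. Within 10 Mb of *Trpm3* 9 genes were called with library size only and 6 to 8 without 1 library, against 5 within 5 Mb and 4 within 2 Mb. A replicate block gave 614 higher and 265 lower, 877 of them also called without it, and changed no named call.

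Of 169 named genes that were called, none changed direction under these alternatives and 149 kept their call in every one that tested them. Library size only ended the calls of 16, all falls, and brought *Mki67*, *Trpv4* and *Trpm1* past the threshold. Leaving out 1 library, with or without the tested genes kept, ended the call of *Lgsn*, *Carnmt1*, *Rpsa*, *Rpl21*, *Ndufa1*, *Syt7*, *Notch3*, *Ddit4*, *Caprin2*, *Plaat3* and *Cnn3*. The causes of these changes were not tested beyond the number of genes in the fit. Depth limits genes near 1 count, and markers of macrophages and cornea lay under the filter.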
